A study of Mus musculus with 87 samples.

Results

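The proneural basic helix-loop-helix (bHLH) genes Neurog1, Neurog2, Neurog3, Atoh1, Neurod1, Neurod2 and Neurod4 were followed through a study of Suz12 isoforms in mouse cells. These 7 genes were taken by name and not by a cut on measured values, with earlier results of these data known. All 7 were present among the 26171 gene symbols in each of the 13 RNA comparison tables. The study used the mouse embryonic stem cell (ESC) line 129-B13, grown in medium with 20% serum and LIF, and neuronal precursors (NP) made from it through embryoid bodies, with retinoic acid added on day 4 and harvest on day 8. Polyadenylated RNA was sequenced from 18 ESC and 14 NP samples. The series also held 55 ChIP-seq samples, all from ESC and for several targets, and 2 deposited lists of regions, for H3K27me3 and Suz12.

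Suz12 is a subunit of Polycomb repressive complex 2 (PRC2), and its exon 4 can be included or skipped. WT cells were unmodified. CSex4 cells included exon 4 constitutively, Deltaex4 cells had exon 4 deleted, and KO cells had a full Suz12 knock-out. KO-L and KO-S cells were KO cells rescued with the long isoform, which holds exon 4, or with the short isoform, which lacks it. KO-L3D and KO-S3D cells, present in ESC only, carried the same rescues with what is called the 3D mutation (position 196, past exon 4), placed in the Rosa26 locus. All 4 rescue groups therefore share the knock-out. ESC RNA came from 3 WT, 3 KO and 2 samples of each other group, and NP RNA from 4 WT and 2 samples of each other group. The labels do not say how many clones a line stands for or if samples came from separate cultures, so p-values measure only the spread between these samples.

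Proneural factors are transcription activators that pair with E proteins, bind E-box sites and start neurogenesis in dividing progenitors. They raise Notch ligands such as Dll1 and, through them, Hes repressors in neighbouring cells, while Id proteins sequester their E protein partners. Neurog1 and Neurog2 are neurogenins that act early in neuronal fate choice, Atoh1 acts in the rhombic lip and in hair cells, Neurog3 acts in the endocrine pancreas, and Neurod1, Neurod2 and Neurod4 act later, in differentiating neurons. PRC2 places trimethylation on lysine 27 of histone H3 (H3K27me3), a repressive mark that in stem cells covers many CpG-rich promoters of developmental regulators.

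Of the 7 genes, 6 lay in or beside regions of the authors' H3K27me3 and Suz12 lists, and Neurod4 had none in either list. The lists held 6882 H3K27me3 and 2865 Suz12 regions named for WT in their headers, which name DiffBind with a cutoff of 5% (FDR). What WT was compared with, and in which direction a region differed, is not stated there, so a region shows only where the authors listed a difference. All ChIP samples came from ESC, so the regions do not describe NP chromatin. Within 2500 bp of the gene, 22.3% of 21896 protein-coding genes had an H3K27me3 region and 11.8% a Suz12 region. The H3K27me3 region covered the start site of 6 members and the Suz12 region that of 5.

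Regions were wide over Neurog1, Neurog2, Atoh1 and Neurod2. The H3K27me3 region over Neurog1 (chr13:56250478-56252180, minus strand) spanned 20389 bp, chr13:56244099-56264487, and ranked number 83 in width in its list, whose median width was 3144.5 bp. That over Neurog2 (chr3:127632733-127635636, plus strand) spanned 21246 bp and that over Neurod2 (chr11:98325415-98329645, minus strand) 26812 bp, number 34 in width. Each of these covered the whole gene. At Atoh1 (chr6:64729125-64731245, plus strand) the H3K27me3 region was 11987 bp and the Suz12 region 9110 bp wide, and at Neurog3 (chr10:62133090-62134763, plus strand) the H3K27me3 region was 7071 bp wide. Neurod1 (chr2:79452637-79456636, minus strand) differed from these. Its H3K27me3 region over the start site was 2443 bp wide and did not cover the gene, and its Suz12 region of 1402 bp lay from -3318 to -1917 bp, upstream of the start. Neurod4 (chr10:130268152-130280254, minus strand) also had no region within 10000 bp.

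**Figure D1:**
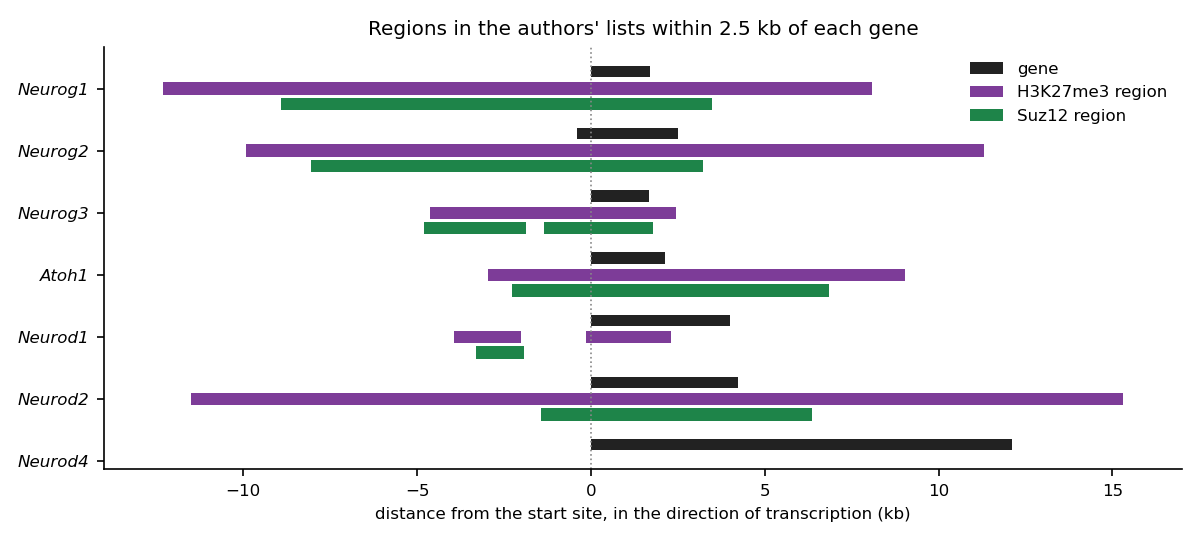
Regions of the authors' H3K27me3 (purple) and Suz12 (green) lists within 2500 bp of each gene, with the gene in black; the horizontal axis is the distance from the annotated start site in kb, in the direction of transcription. Regions of both lists span the start sites of all but Neurod1, where only an H3K27me3 region does, and Neurod4, where none is listed.

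The promoters are shown because the members differ in CpG content, a property of promoters that PRC2 covers. The 250 bases upstream of the annotated start are given for Neurog1, Atoh1, Neurod1 and Neurod4, from RefSeq on GRCm38.p6 (the build UCSC names mm10), 5′ to 3′ on the gene's strand, with each CG dinucleotide in capitals. CG reads the same on both strands.
Neurog1, chr13:56252181-56252430, minus strand: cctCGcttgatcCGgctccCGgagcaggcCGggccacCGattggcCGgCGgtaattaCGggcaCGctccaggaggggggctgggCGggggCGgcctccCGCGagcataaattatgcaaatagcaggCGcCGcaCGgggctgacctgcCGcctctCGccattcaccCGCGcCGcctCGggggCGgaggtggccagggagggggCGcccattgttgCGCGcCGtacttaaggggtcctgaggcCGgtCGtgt
Atoh1, chr6:64728875-64729124, plus strand: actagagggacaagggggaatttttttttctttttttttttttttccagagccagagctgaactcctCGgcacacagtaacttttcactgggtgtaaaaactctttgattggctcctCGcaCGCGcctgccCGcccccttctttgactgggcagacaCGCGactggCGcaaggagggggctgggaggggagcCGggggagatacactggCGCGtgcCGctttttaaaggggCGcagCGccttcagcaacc
Neurod1, chr2:79456637-79456886, minus strand: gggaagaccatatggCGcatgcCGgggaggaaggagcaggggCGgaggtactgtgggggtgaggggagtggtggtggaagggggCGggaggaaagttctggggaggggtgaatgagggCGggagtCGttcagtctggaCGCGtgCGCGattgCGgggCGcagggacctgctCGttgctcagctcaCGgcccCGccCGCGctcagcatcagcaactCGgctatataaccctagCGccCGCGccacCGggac
Neurod4, chr10:130280255-130280504, minus strand: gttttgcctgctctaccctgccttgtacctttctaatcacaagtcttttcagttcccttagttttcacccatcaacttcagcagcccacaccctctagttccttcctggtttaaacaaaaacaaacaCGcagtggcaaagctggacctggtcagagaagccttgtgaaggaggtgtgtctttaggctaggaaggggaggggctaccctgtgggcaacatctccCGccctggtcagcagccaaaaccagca

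The Neurog1 sequence held 29 CG dinucleotides, that of Neurod1 22, that of Atoh1 14 and that of Neurod4 2. The upstream window of Neurog2, which lies inside its annotated gene and is not shown, held 8. Counted over the RefSeq windows of 300 bases (250 before to 50 after the start), Neurog1 had 32, Neurod1 26, Atoh1 20, Neurog3 19, Neurod2 16 and Neurog2 10. The 2 windows of Neurod4 had 7 and 4. The median over all 32851 windows was 7, and over the windows that overlapped an H3K27me3 region it was 20. The E-box CANNTG, which reads the same on both strands, occurred in at least 1 window of Neurog1, Neurog3, Neurod1, Neurod2 and Neurod4, and in 72.3% of all windows.

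Levels below are CPM, the reads of a gene per 1000000 reads of its library, from whole reads per library that were recovered from the deposited means for all 7 genes. Libraries carry arbitrary letters, since the tables do not tell which replicate number each has. Totals were 24323460 to 31708817 reads in ESC and 23069332 to 46118016 in NP. Suz12 fell from 154 to 298 CPM in ESC WT to 47.0 to 95.7 in ESC KO, and from 107 to 202 in NP WT to 42.7 to 44.6 in NP KO, with no overlap in either cell type. In the authors' deposited table for the NP KO, Suz12 had a log2 fold change of -2.14 ± 0.33 (SE, adjusted p = 5.6321e-09). The NP WT library a stood apart from the other NP WT libraries. Its summed postmitotic neuron markers (Dcx, Tubb3, Map2, Elavl3, Elavl4, Stmn2) were 264 CPM against 1298 to 1404 in the other NP WT libraries, and its Pou5f1 was 70.4 against 6.64 to 26.8. NP WT libraries a and b enter the CSex4, Deltaex4 and KO comparisons, and c and d enter a separate WT against KO table, so that table gives the knock-out effect without library a.

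In NP, Neurog1, Neurog2, Neurod1 and Neurod4 fell in KO cells, and Neurog3, Atoh1 and Neurod2 had at most 30 reads in any NP library other than 1 WT library for Atoh1. The authors' deposited table called these 4 of the 7 genes lower in KO than in WT, and 9.85% of the genes tested were called lower. Neurog3 and Neurod2 had no adjusted p in that table, and Atoh1 was tested and not called. In bulk RNA, fewer cells that express a gene and less RNA per cell cannot be told apart.

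Neurog1 stood at 17.9, 74.6, 85.1 and 68.5 CPM in the 4 NP WT libraries (61.5 ± 29.9, SD, n = 4) and at 1.09 and 0.233 in the 2 KO libraries (0.662 ± 0.607, SD, n = 2). Every WT library, the low library a included, lay above both KO libraries. In the authors' deposited tables its log2 fold change was -6.20 ± 0.49 (SE, adjusted p = 7.4622e-34) with WT libraries a and b, and 7.09 ± 0.48 for WT over KO with libraries c and d. That second table called the same 4 genes higher in WT, where 15.6% of genes were called higher.

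Neurog2 showed the same order, with 10.8, 30.3, 22.4 and 24.5 CPM in NP WT (22.0 ± 8.17, SD, n = 4) and 0.151 and 0.155 in KO. The KO libraries held 4 reads each. The groups did not overlap, and the authors' deposited table gave a log2 fold change of -6.98 ± 0.72 (SE, adjusted p = 1.1503e-19).

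Neurod1, a later gene of the neuronal programme, kept the most of its level. It stood at 5.86, 21.5, 19.9 and 17.4 CPM in NP WT (16.2 ± 7.08, SD, n = 4) and at 0.903 and 2.41 in KO, 10.2% of the WT mean. The KO libraries were below every WT library, and the log2 fold change in the authors' deposited table was -2.93 ± 0.70 (SE, adjusted p = 0.00035685). With limma on the recovered reads of that table and no replicate block, Neurod1 alone of the 4 lost its call (log2 fold change -2.91, adjusted p = 0.0666), where 11.3% of genes were called. The limma fits over all libraries of a cell type, given from here on, also had no replicate block. They set aside the library pairs of the authors' fits, and the NP fit pooled all 4 WT libraries. For these fits, the share of all genes called is given only with every library kept. Counts with a library left out have no share beside them. A limma fit over all 14 NP libraries, added after the data had been seen, called all 4 lower in KO with every library left out in turn, where 24.2% of genes were called lower.

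Neurod4, the member without a listed region, fell the furthest in fitted value. NP WT libraries had 8.45, 32.8, 28.4 and 30.7 CPM (25.1 ± 11.2, SD, n = 4), and the KO libraries had 0 reads and 1 read. WT libraries a and b held 1237 reads, a ratio of 1053 at equal depth with an exact 95% interval of 188.6 to 4.161e+04 that covers counting error only. The authors' deposited table gave a log2 fold change of -9.90 ± 1.33 (SE, adjusted p = 5.8694e-12).

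**Figure D2:**
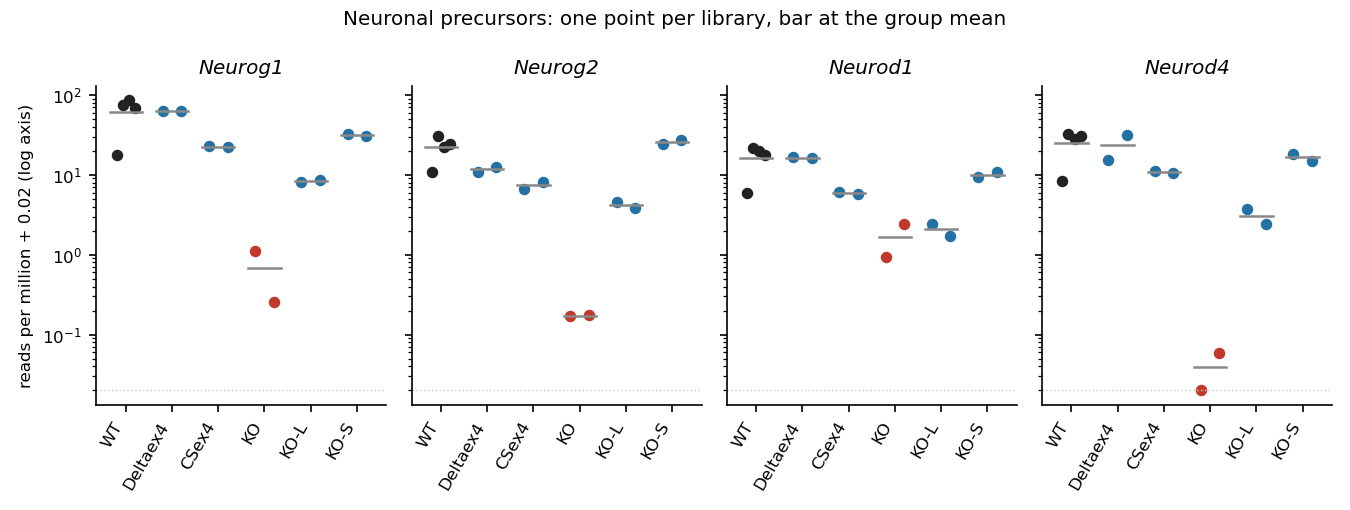
CPM plus 0.02 (log axis) of Neurog1, Neurog2, Neurod1 and Neurod4 in neuronal precursors, with 1 point per library (4 WT, 2 in each other group) and a bar at each group mean; the dotted line marks 0 reads. The KO points (red) lie under all WT points (black) in each panel, and the KO-S points lie above the KO-L points.

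Atoh1 stood at 0.156, 2.68, 0.207 and 0.152 CPM in NP WT, so that library b held 79 of its 97 WT reads. In KO it had 10 and 3 reads. Its log2 fold change of -1.81 ± 1.36 (SE) in the authors' deposited table was not called (adjusted p = 0.38547), and the ratio of means went from -2.43 to 0.60 on the log2 scale when WT library b was left out. Neurog3 had 1 to 30 reads in the WT libraries and 3 and 12 in KO, and Neurod2 had at most 4 reads in any NP library.

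In NP, Neurog1, Neurog2 and Neurod4 were higher than in KO with either rescue, and Neurod1 was called higher with the short rescue. In the authors' deposited tables, KO-L was called higher than KO for 3 of the 7 genes, where 10.9% of the genes tested were called higher, and KO-S for 4 of the 7, where 16.4% were. The 2 tables share the KO libraries. Atoh1, Neurog3 and Neurod2 had no adjusted p in either table.

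For Neurog1, the KO-L libraries had 8.11 and 8.64 CPM and KO-S libraries 32.5 and 30.6. The authors' deposited tables gave log2 fold changes over KO of 3.95 ± 0.61 (SE) for KO-L and 5.98 ± 1.00 for KO-S. Neurog2 stood at 4.51 and 3.83 CPM with the long rescue, and the short rescue gave 24.3 and 27.01. Both KO-S libraries were above both KO-L libraries for each gene.

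Neurod4 had 3.73 and 2.41 CPM with the long rescue and 18.3 and 14.9 with the short one. Neurod1 had 2.38 and 1.71 in KO-L, which overlapped the KO libraries, and 9.37 and 10.7 in KO-S, which did not. Its log2 fold change over KO was 0.48 ± 0.75 (SE, adjusted p = 0.73472) for KO-L and 2.80 ± 0.49 (SE, adjusted p = 1.4419e-07) for KO-S in the authors' deposited tables.

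The difference between the isoforms was 2.67 ± 1.02 (log2, SE) for Neurog2, 2.32 ± 0.89 for Neurod1, 2.03 ± 1.17 for Neurog1 and 2.46 ± 2.15 for Neurod4, taken as the short minus the long rescue effect in the authors' tables. Adjusted over 20741 genes, none of the 7 passed in a two-sided normal test on the DESeq2 estimates (adjusted p = 0.103 for Neurog2 and Neurod1), where 7.03% of all genes did, and 2 had an unadjusted p under 0.05. This test counts the KO spread in both terms and so is conservative. The limma fit over all 14 NP libraries compared the rescues directly and called 3 of the 7 higher in KO-S than in KO-L, where 10.2% of genes were called higher. These were Neurog2 by 2.62 ± 0.38 (log2, SE, adjusted p = 0.0017487), Neurod1 by 2.30 ± 0.58 (adjusted p = 0.018562) and Neurod4 by 2.45 ± 0.67 (adjusted p = 0.026099). Neurog1, at 1.91 ± 0.72, had an adjusted p of 0.079036 in limma. Without any 1 of the KO-L or KO-S libraries, only Neurog2 passed. Without NP WT library a, limma also called Neurog1 higher and Atoh1 lower in KO-S, and the share of all genes called in that fit is not given.

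Set against WT in the same limma fit, the long rescue was called below WT and the short rescue was not called for these 4 genes. KO-L means were 13.6% of the WT mean for Neurog1, 18.9% for Neurog2, 12.7% for Neurod1 and 12.2% for Neurod4. All 4 were called lower, where 20.6% of genes were called lower, with log2 values from -2.88 ± 0.58 (SE, Neurod4, limma adjusted p = 0.003494) to -2.31 ± 0.33 (Neurog2). Neurog1, at -2.65, lost the call without KO-L library a or b (limma adjusted p = 0.0521 and 0.0555). KO-S means were 51.3% of the WT mean for Neurog1, 117% for Neurog2, 62.1% for Neurod1 and 66.0% for Neurod4, and each KO-S library lay within the range of the WT libraries. The low WT library a sets the bottom of that range, and without it the KO-S libraries lay below the other 3 WT libraries for Neurog1, Neurod1 and Neurod4 but not for Neurog2. The KO-S minus WT values were -0.74 ± 0.62 (Neurog1), 0.31 ± 0.33 (Neurog2), -0.53 ± 0.50 (Neurod1) and -0.43 ± 0.58 (Neurod4), and their limma adjusted p lay between 0.45053 and 0.6519. Without WT library a the values were -1.26 ± 0.44 for Neurog1 (limma adjusted p = 0.059017), 0.01 ± 0.19 for Neurog2 (0.98772), -0.96 ± 0.33 for Neurod1 (0.056994) and -0.89 ± 0.44 for Neurod4 (0.15778). Atoh1 was the only member called against WT in KO-S, where 3.67% of genes were called lower. It had 0 reads in both KO-S libraries, which allows up to 0.104 and 0.108 CPM. The limma call (adjusted p = 0.028878) was lost without KO-S library a or b or WT library c. Only WT library b (79 reads) and KO library a (10 reads) reached the limma minimum of 10 reads in 2 libraries. Without either of them Atoh1 dropped out of the fit and was not tested.

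Cell type markers also differed between these groups, not all in the order of the members, and their part in the result was not tested. The 5 neural progenitor markers (Sox1, Pax6, Nes, Fabp7, Hes5) summed to 273 to 677 CPM in NP WT, 93.9 to 95.8 in KO, 193 to 256 with the long rescue and 366 to 393 with the short one. The 6 postmitotic neuron markers summed to 264 to 1404 in WT, 56.9 to 66.2 in KO, 254 to 331 with the long rescue and 311 to 363 with the short one. The 5 mesenchyme markers (Col1a1, Col1a2, Col3a1, Pdgfra, Twist1) stood out in KO-L, at 735 to 842 against 126 to 289 in WT and 154 to 155 in KO-S. In the authors' deposited KO-L against KO table, where 10.9% of genes were called higher and 13.8% lower, 3 of the 5 progenitor markers were higher (Fabp7 by 6.66 ± 0.82, Hes5 by 5.91 ± 1.13 and Nes by 1.60 ± 0.21, log2, SE) and Sox1 was lower (-2.18 ± 0.38). In the KO-S table, where 16.4% were called higher and 18.0% lower, all 5 were higher. The 5 pluripotency markers (Pou5f1, Nanog, Zfp42, Esrrb, Klf4) summed to 59.6 to 308 CPM in WT, 107 to 329 in KO, 512 to 747 with the long rescue and 99.2 to 130 with the short one. Of these 5 the authors' deposited table called 3 higher and Klf4 lower (-2.15 ± 0.25) in KO-L against KO, and 2 lower in KO-S against KO.

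With exon 4 fixed in or out of Suz12 in NP, no proneural gene was called by the authors' test. The CSex4 and Deltaex4 tables each tested 5 of the 7 and called none, where 5.53% and 0.0809% of all genes tested were called. At an unadjusted p under 0.05, CSex4 had 2 (Neurog2 and Atoh1) and Deltaex4 none, and limma on the reads of each table called none of the 7, and 0% of all genes, with or without a replicate block.

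Levels in NP were lower in CSex4 than in Deltaex4 for each of the 4 expressed members. Neurog1 had 63.3 and 63.6 CPM in Deltaex4 and 22.6 and 22.5 in CSex4. Neurod1 had 16.7 and 16.1 in Deltaex4 and 6.05 and 5.65 in CSex4. Neurog2 had 10.8 and 12.4 in Deltaex4 and 6.62 and 8.18 in CSex4, and Neurod4 15.4 and 31.4 in Deltaex4 and 11.2 and 10.4 in CSex4. The CSex4 libraries lay below both Deltaex4 libraries for all 4 genes. For Neurog1 and Neurod4 they lay above the low WT library a and below the other 3, for Neurod1 they lay to either side of library a, and for Neurog2 they lay below all 4. The Deltaex4 mean was 103% of the mean of all 4 WT libraries for Neurog1, 52.8% for Neurog2, 101% for Neurod1 and 93.2% for Neurod4. Against WT libraries a and b only, the authors' log2 fold changes were 0.80 ± 0.49 (SE) for Neurog1 and -0.64 ± 0.51 for Neurog2. They were 0.55 ± 0.53 for Neurod1 and 0.41 ± 0.62 for Neurod4.

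The difference CSex4 minus Deltaex4 in the authors' NP tables was -1.54 ± 0.67 (log2, SE) for Neurog1 and -1.54 ± 0.73 for Neurod1, with none of the 7 called over all genes (adjusted p = 0.39974 and 0.52387, two-sided normal test on the DESeq2 estimates), where 1.22% of all genes were called and these 2 had an unadjusted p under 0.05. The limma fit over all NP libraries called Neurog2 lower in CSex4 than in WT (log2 -1.48 ± 0.33, SE, adjusted p = 0.012187), where 11.9% of genes were called lower. That call was lost without either CSex4 library (limma adjusted p = 0.1234 and 0.08525). Without WT library a, the limma log2 values were -1.74 for Neurog1, -1.79 for Neurog2, -1.74 for Neurod1 and -1.50 for Neurod4. All 4 were called lower in CSex4 there, but the share of all genes called in that fit is not given. That count is therefore not read as a result about the members. The authors' fit had paired WT library a with CSex4 library a, a pairing that limma did not use here. CSex4 libraries held the 5 pluripotency markers at 1073 and 1086 CPM, against 59.6 to 308 in WT, and the neural progenitor markers at 191 and 182. Suz12 itself was at 305 to 325 CPM in CSex4, 106.7 to 141.5 in Deltaex4 and 107.4 to 201.5 in WT. The part of these markers and of Suz12 in the exon 4 values was not tested.

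In ESC the knock-out had the opposite sign for Neurog1. The authors' deposited table called Neurog1 and Atoh1 higher in KO than in WT, 2 of the 7 genes where 11.0% of genes were called higher, and Neurod1 lower, 1 of the 7 where 7.27% were called lower. Neurog2, Neurod2 and Neurod4 had at most 2 reads in any ESC library, and Neurog3 was not called.

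Neurog1 went from 1, 0 and 1 reads in the 3 ESC WT libraries to 75, 65 and 9 in KO, or 2.56, 2.41 and 0.35 CPM. Atoh1 went from 0, 3 and 0 reads to 46, 39 and 5, with KO library c low for both genes. KO libraries lay above all WT libraries in each case, at levels well under those of Neurog1 in NP WT. The authors' deposited table gave log2 fold changes of 5.92 ± 1.14 (SE, adjusted p = 5.6794e-06) for Neurog1 and 5.25 ± 1.54 (SE, adjusted p = 0.0063259) for Atoh1. In reads, the Neurog1 ratio was 80.8 (exact 95% interval 22.0 to 673, counting error only) and the Atoh1 ratio 32.5 (10.8 to 161).

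Neurod1 was the one member with a clear level in undifferentiated WT cells, at 5.62, 4.54 and 11.6 CPM (7.26 ± 3.81, SD, n = 3). It was at 2.59, 2.0 and 1.71 in KO (2.10 ± 0.45, SD, n = 3), below every WT library, with a log2 fold change of -1.87 ± 0.38 (SE, adjusted p = 2.6388e-05) in the authors' deposited table.

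A limma fit over all 18 ESC libraries, also added after the data had been seen, called Neurog1 (adjusted p = 0.017567) and Atoh1 (adjusted p = 0.019939) higher in KO, where 13.8% of genes were called higher, and gave Neurod1 an adjusted p of 0.055628. Without KO library a or b it called none of the 7, and without WT library a, b or c it called 1. The share of all genes called in these reduced fits is not given.

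**Figure D3:**
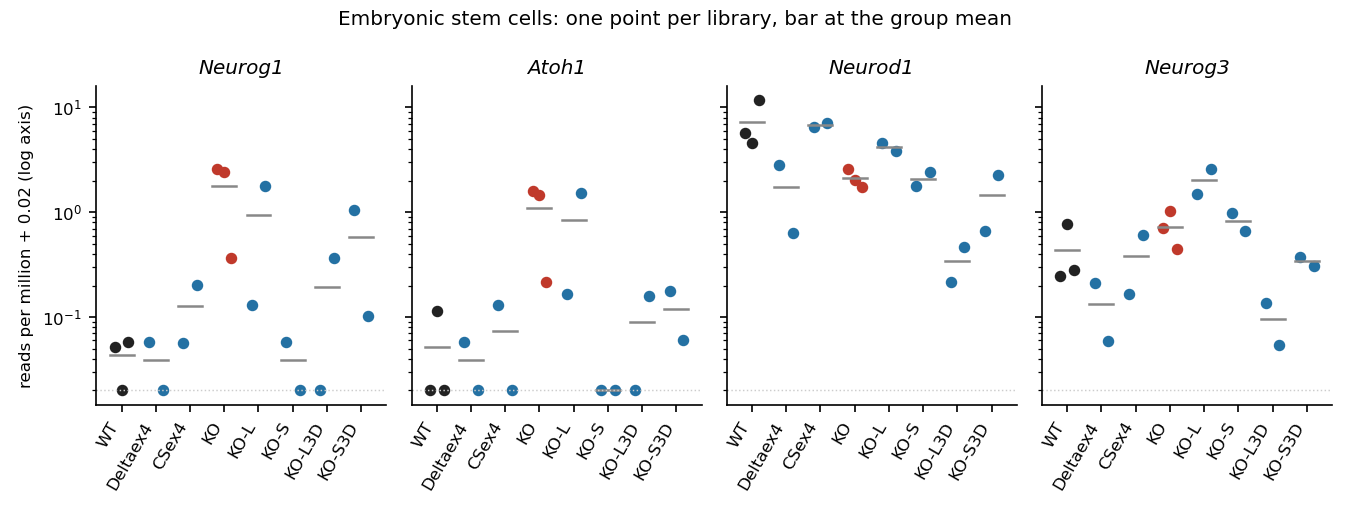
CPM plus 0.02 (log axis) of Neurog1, Atoh1, Neurod1 and Neurog3 in embryonic stem cells, with 1 point per library (3 WT, 3 KO, 2 in each other group) and a bar at each group mean; the dotted line marks 0 reads. KO (red) lies above WT (black) for Neurog1 and Atoh1 and below it for Neurod1, and KO-L libraries differ widely from each other for Neurog1 and Atoh1.

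In the ESC rescues, Neurog1 and Atoh1 had few reads and single libraries carried some of the values. Neurog1 had 3 and 48 reads and Atoh1 4 and 41 reads in KO-L, with the high reads of both genes in the same library, b. In KO-S, Neurog1 had 1 and 0 reads and Atoh1 0 and 0. The authors' deposited KO-L table tested 2 of the 7, Neurog3 and Neurod1, and called neither, where 2.23% of genes were called. Of the 7, 3 had an unadjusted p under 0.05. That table left Neurog1 and Atoh1 without an adjusted p, with log2 fold changes over WT of 4.80 ± 2.08 (SE) and 4.08 ± 2.07. Without KO-L library b the log2 ratio of means to WT went from 4.45 to 1.58 for Neurog1 and from 4.03 to 1.69 for Atoh1.

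Against KO, the limma fit over all ESC libraries called both genes lower in KO-S, where 10.1% of genes were called lower, at -5.28 ± 1.48 (log2, SE, adjusted p = 0.027777) for Neurog1 and -5.33 ± 1.34 (adjusted p = 0.017074) for Atoh1. Neither call held without any 1 of KO libraries a and b or the 2 KO-S libraries. None of the 7 was called in KO-L against KO by limma, where 9.67% of genes were, and none had an unadjusted p under 0.05. The KO-L minus KO value was -1.47 ± 1.48 (log2, SE) for Neurog1.

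Neurod1 was called lower than WT in KO-S, KO-L3D and KO-S3D in the authors' deposited tables, and in KO-L it was not called (log2 fold change -0.87 ± 0.51, SE, adjusted p = 0.64274). Of all genes tested, 3.63% were called lower in KO-S, 10.1% in KO-L3D and 1.18% in KO-S3D. Neurod1 had 4.58 and 3.80 CPM with the long rescue, 1.76 and 2.39 with the short one, 0.194 and 0.452 in KO-L3D, and 0.638 and 2.26 in KO-S3D. The lowest levels were thus those of the mutated long rescue, at a log2 fold change of -4.84 ± 0.70 (SE, adjusted p = 6.6745e-10) in the authors' deposited table. For KO-S the value was -1.98 ± 0.55 (SE, adjusted p = 0.0079138) and for KO-S3D -2.72 ± 0.78 (SE, adjusted p = 0.020359) in the same tables. In limma on the recovered reads with a replicate block, the KO-L3D value was -4.52 (adjusted p = 0.0685) and 0% of genes were called. For KO-S3D, limma did not call Neurod1 without a block (adjusted p = 0.0700, 7.60% of genes called) or with one (adjusted p = 0.146, 0.00657% called).

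Neurod1 was lower in the long rescue with the 3D mutation than in the one without it. The difference KO-L3D minus KO-L was -3.98 ± 0.87 (log2, SE), with an adjusted p of 0.0007358 in a two-sided normal test on the DESeq2 estimates of all genes, of which 2.84% were called. It was the 1 member of the 7 called. Other values moved with the mutated long rescue, and their part in the result was not tested. Suz12 itself was at 68.7 to 98.7 CPM in KO-L3D, which overlapped KO (47.0 to 95.7) and lay below KO-L (112 to 126). The 5 primitive streak and mesoderm markers summed to 91.5 and 318 CPM in KO-L3D, 21.0 and 35.0 in KO-L and 5.02 to 7.44 in WT. The pluripotency markers summed to 3593 and 4884 CPM in KO-L3D, 1580 and 2600 in KO-L and 2164 to 2934 in WT. The neural progenitor markers were lower in KO-L3D (15.7 to 28.7 CPM) than in KO-L (98.3 to 172.8), with 20.3 to 78.5 in WT. Mesenchyme markers were likewise lower, at 5.94 to 10.1 against 82.7 to 87.0 in KO-L and 12.3 to 39.9 in WT. In the short rescue the Neurod1 difference was -0.74 ± 0.95 (95% interval -2.61 to 1.13). Only Neurog1, Neurog3, Atoh1 and Neurod1 had values in this comparison. None of them was called or had an unadjusted p under 0.05 (0.440% of all genes were called). Suz12 was higher in KO-S3D (190.9 to 341.2 CPM) than in KO-S (147.7 to 148.1), opposite to the long pair, and its part was not tested. Neurog3 had 40 and 71 reads in KO-L and 3 and 1 in KO-L3D, a difference of -5.09 ± 2.20 (log2, SE) that did not pass (adjusted p = 0.24493, two-sided normal test on the DESeq2 estimates).

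With exon 4 fixed in or out, ESC levels of Neurod1 were 6.52 and 7.15 CPM in CSex4, within the WT range, and 2.82 and 0.620 in Deltaex4, below it. The authors' deposited Deltaex4 table gave -2.52 ± 0.65 (log2, SE, unadjusted p = 9.8087e-05, adjusted p = 0.99998). That table called no gene among 20263, and limma on its reads called none with or without a replicate block. In the CSex4 table only Neurod1 of the 7 had an adjusted p. It was not called, where 2.41% of the genes tested were, and no member had an unadjusted p under 0.05. The difference CSex4 minus Deltaex4 for Neurod1 was 2.35 ± 0.83 (log2, SE, adjusted p = 0.55573, two-sided normal test on the DESeq2 estimates), and of all genes 0.0502% were called. Suz12 itself was at 241 to 267 CPM in ESC CSex4, 79.8 to 135.8 in Deltaex4 and 154 to 298 in WT, and its part was not tested.

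**Figure D4:**
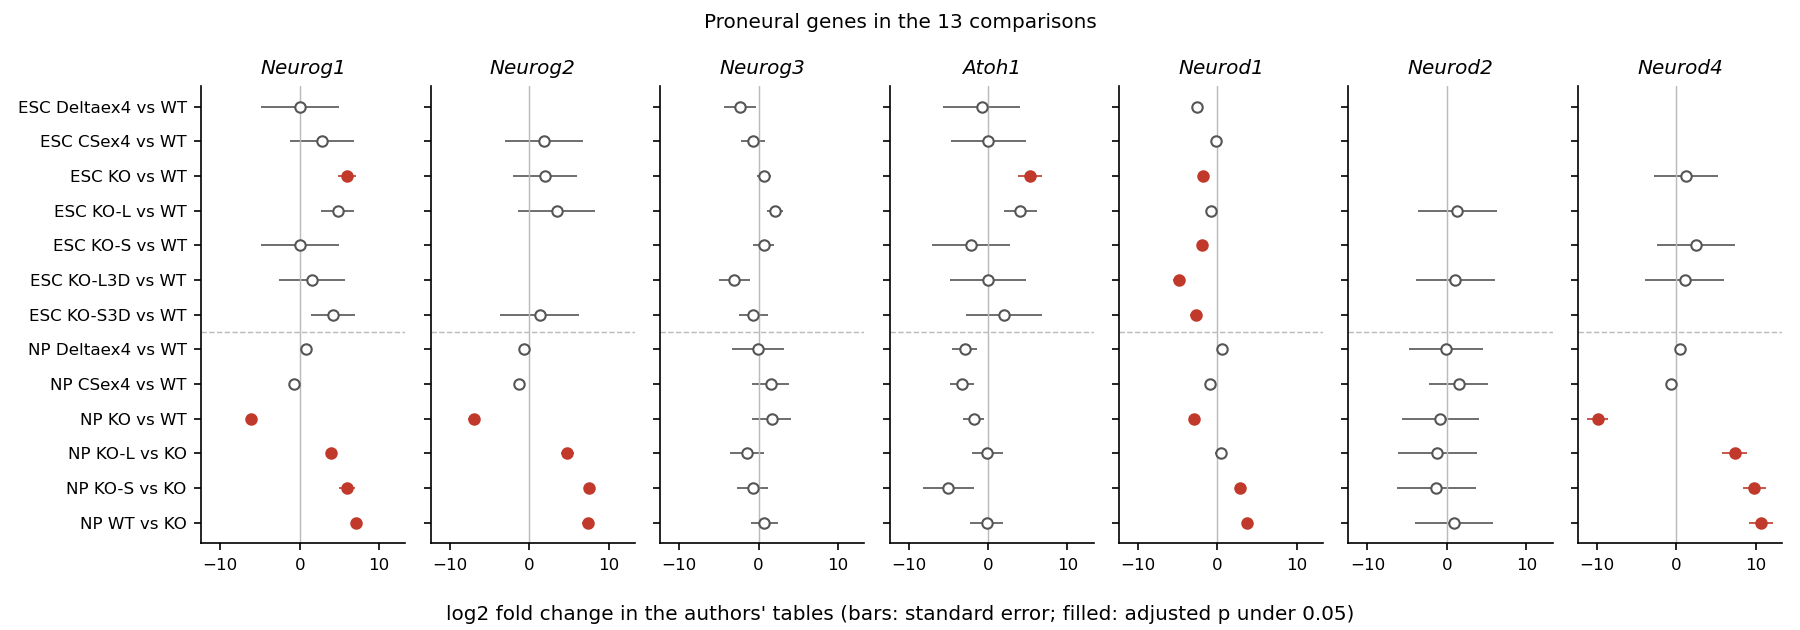
Log2 fold changes (horizontal axis) of the 7 genes in the authors' 13 tables, with bars of 1 standard error; filled red points had an adjusted p under 0.05, open points did not or had none, and a missing point had no reads. The dashed line separates ESC from NP comparisons, and Neurog1 in KO against WT lies at 5.92 in ESC and at -6.20 in NP.

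With NP WT libraries a and b, the knock-out effect itself differed between the cell types for 2 of the 7 genes, where 9.65% of all genes differed. As NP minus ESC, the difference was -12.1 ± 1.24 (log2, SE, adjusted p = 2.0122e-19, two-sided normal test on the DESeq2 estimates) for Neurog1 and -7.06 ± 2.05 (adjusted p = 0.0097383) for Atoh1. The NP effect of Atoh1 was not called by the authors' test, and WT library b held 79 of its 84 WT reads there. With NP WT libraries c and d in place of a and b, the Neurog1 difference was -13.0 and the Atoh1 difference -5.06 and the latter was not called (adjusted p = 0.208). The Neurod1 difference (-1.83, adjusted p = 0.02359) then passed the test. Neurod4 then also had an adjusted p under 0.05 (0.03947), but its ESC effect rests on 2 reads in 1 KO library against 0 in WT and is not read as a difference. Neurod1 was lower in KO in both cell types.

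Other genes around the proneural factors were read from lists. The shares of all genes against which the counts stand were 9.85% lower and 11.6% higher in the NP KO against WT table, 15.6% lower and 17.3% higher in KO in the table with NP WT libraries c and d, 16.4% higher in KO-S and 10.9% higher in KO-L against KO, and 7.27% lower and 11.0% higher in ESC KO. Both NP knock-out tables share the KO libraries.

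Of 16 Notch pathway genes, 7 were called lower and none higher in NP KO in the authors' deposited table (median log2 -0.82, against -0.01 over all genes tested), and 9 lower and none higher with WT libraries c and d. They included the Notch effector repressors Hes5 (-9.06 ± 0.95, SE) and Hes3 (-6.83 ± 2.25) and the Notch-modifying glycosyltransferase Mfng (-4.09 ± 0.65). In KO-S against KO, 10 of the 16 were called higher, among them the ligand gene Dll3 (3.77 ± 0.37), and in KO-L against KO 9 were higher and 1, Jag2, lower. In ESC KO, 3 were lower, the ligand genes Dll1 (-1.22 ± 0.37), Dll3 (-1.14 ± 0.38) and Jag2 (-0.73 ± 0.21).

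Of 19 genes placed downstream of proneural factors, 18 were tested in NP KO and 10 were called lower, with none higher (median log2 -2.84). With WT libraries c and d, 11 were lower in KO and 1, Isl1, was higher (WT over KO -1.55 ± 0.48, SE, authors' deposited table). The largest falls were in the zinc finger genes Myt1 (-7.36 ± 1.83, SE) and St18 (-6.73 ± 0.81) and in the bHLH gene Nhlh2 (-7.29 ± 0.66), all in the authors' deposited table. In KO-S against KO, 11 of 16 tested were higher and 1, Pou4f1, lower (-1.63 ± 0.68), and in KO-L 7 were higher and 2 lower. In ESC KO, 4 of 13 tested were higher, among them Ebf2 (4.69 ± 1.46), Isl1 (4.42 ± 0.70) and Ebf3 (3.38 ± 0.90), while Insm1 was lower (-1.91 ± 0.40).

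Of 9 other neural bHLH genes, 7 were tested in NP KO and 5 were called lower, including Olig3 (-7.45 ± 0.75, SE), Ptf1a (-7.37 ± 1.30) and Olig2 (-2.93 ± 0.97) in the authors' deposited table. With WT libraries c and d, 4 of 7 tested were lower in KO. All 7 tested in KO-S against KO were higher, and in KO-L 3 were higher and 1 lower. Among the 8 E protein, Id and Hes6 genes the NP KO moved 1 each way, the Id gene Id1 up (0.97 ± 0.36) and the E protein gene Tcf4 down (-1.50 ± 0.38). With WT libraries c and d instead, 5 of the 8 were lower in KO, Tcf4, Id4 and Id3 among them, and Id1 was higher. In ESC KO, Id3 (1.35 ± 0.30) and Id4 (0.93 ± 0.34) were higher and Hes6 was lower (-0.66 ± 0.23).

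The marker lists gave the setting of the NP knock-out, and several of their counts differed with the WT libraries used. In the authors' deposited table with WT libraries a and b, 4 of 5 neural progenitor and 5 of 6 postmitotic neuron markers were lower in KO, the latter including Dcx (-6.54 ± 1.72, SE), which encodes a neuronal microtubule-binding protein. With libraries c and d these were 4 of 5 and 6 of 6. Of 5 endoderm markers, Foxa2, Gata4 and Gata6 were higher in KO in both tables, and Afp was lower in the first. Of 5 pluripotency markers, 1 was higher in KO in the first table (Klf4) and 4 in the second, Pou5f1 (WT over KO -2.55 ± 0.46), Zfp42 and Esrrb among them. Of 5 primitive streak and mesoderm markers, none was called in the first table, and Eomes (WT over KO -3.35 ± 0.63) and Hand1 (-2.49 ± 0.54) were higher in KO in the second. Of 5 mesenchyme markers, 2 were lower in the first and none was called in the second. No neural crest marker was called in the first, and in the second Foxd3 was lower and Ets1 higher in KO.

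In ESC KO, 4 of 5 neural crest and 3 of 5 primitive streak and mesoderm markers were higher in the authors' deposited table, among them Tfap2a (3.23 ± 0.45, SE) and T (3.48 ± 0.58). Of 5 pluripotency markers 2 were higher, Klf4 (1.46 ± 0.23) and Nanog (1.28 ± 0.20), and of 5 mesenchyme markers 1, Twist1 (1.14 ± 0.35). No neural progenitor, neuron or endoderm marker was called.

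Likeness of pattern was measured as Pearson's r of the log2 fold changes across comparisons, which share libraries, among 12603 genes with a mean of at least 50 in every NP table. It is given for Neurod1, since each of the other 6 members had under 10 reads in every library of at least 3 ESC groups. Closest to Neurod1 over the 13 comparisons were Crmp1, Chd7 and Dhx30 (each r = 0.97).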

How the data were processed

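RNA was sequenced from 32 mouse samples, and 13 comparison tables and 2 region lists were deposited. Per the submitters' processing notes, TopHat, Bowtie, DESeq2 and DiffBind were used, with builds mm10 and dm3 and no versions. Per the file headers, the authors' tables give a mean signal per gene (normalized by size factors), a log2 fold change with its standard error, a test statistic (a score here) and p-values with adjustment. The deposited region lists give 1 value per region, which may be a raw or an adjusted p-value, since the headers leave this unsaid. The members and gene lists were chosen with earlier results of these data known.

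The main calls were the authors' adjusted p under 0.05, and differences between comparisons used a two-sided normal test with Benjamini-Hochberg adjustment over all genes. The unit was not counts, so whole reads were solved from the deposited means for 22127 ESC and 22456 NP genes, with 3 ESC genes unsolved. These gave CPM, exact ratios with intervals that cover counting error only, and limma 3.58.1 fits in R 4.3.3 (at least 10 reads in 2 libraries, prior of 0.5 reads). They also showed which libraries the authors' fit paired, and the limma fits over all libraries of a cell type set these pairs aside. Tables share libraries, 32 in 60 places. The scripts were tested on simulated data. Named genes were Suz12, the members, up to 3 called genes per list and direction with the largest change, and the 3 genes most like each member, given for Neurod1 only. Alternatives were other thresholds, a minimum mean of 10, other region distances, limma fits and leaving out each library. Promoters came from RefSeq on GRCm38.p6, where all 7 members matched.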

Additional observations from a re-analysis of the deposited data

Results flagged for a closer look

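Atoh1 in NP WT library b stood at 2.684 CPM, far from the other 3 NP WT libraries, by a Dixon gap test that flags about 1 in 20 groups of this size by chance. The effect of the knock-out differed between NP and ESC for Neurog1, by -12.12 on the log2 scale, and for Atoh1, by -7.056, in a test of the difference itself. With NP WT libraries c and d the Atoh1 difference was -5.06 ± 2.61 (SE) and was not called.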

How the results depend on the processing

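In the authors' tables, a threshold of 0.01 left 0 members called in ESC KO-S3D, and one of 0.1 called 1 in NP CSex4. With limma on recovered reads, 0 members were called in ESC KO-L3D with a replicate block, and 0 in ESC KO-S3D with or without a replicate block, while the replicate block ended no other member's call. Leaving out 1 library at a time in the limma fit over all libraries gave 0 to 3 called members for ESC KO against WT, 0 to 2 for ESC KO-S against KO, 0 to 4 for NP CSex4 against WT, 1 to 5 for NP KO-S against KO-L and 0 to 1 for NP KO-S against WT, where a group left with 1 library is assumed to vary like the others. Without a filter on low reads, 1 member was called for ESC KO-S against KO. With the filter, Atoh1 was not tested in NP when WT library b or KO library a was left out. The shares of all genes called with a library left out are not given, so those counts are not read as results about the members. The cause of these changes was not tested. Over all genes, limma called 4042 in ESC KO without a block and 5179 with one against 3092 by the authors, 1860 and 1616 in NP KO against 3514, and 4715 and 0 in ESC KO-L3D against 2792. Neurog2, Neurod2 and Neurod4 in ESC, and Neurod2 in NP, had too few reads for any comparison.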
